A study of Mus musculus with 4 samples.

Results

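Potassium channel genes were taken as all genes whose symbol in the deposited files begins with Kcn, followed by further letters and a digit. This gave 94 genes on 136 RefSeq transcript records, among 27209 genes in all. They encode the pore-forming subunits of the voltage-gated (Kv), inward rectifier, two-pore and calcium- or sodium-activated channels and many of their accessory subunits. One member, Kcnq1ot1, is a non-coding RNA transcribed antisense to Kcnq1. Of the 94 genes, 35 had at least 50 reads in one library and were followed further, and 34 had an average of 1 CPM or more (a count scaled to library size by TMM, in parts per megaread) over the 4 libraries and were compared.

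RNA had been sequenced from heart muscle cells isolated from CD1 mice on postnatal day 1 and cultured, with 1 library per condition. One culture received the human microRNA mimic hsa-miR-590-3p and another the human mimic hsa-miR-199a-3p. The 2 controls received the Caenorhabditis elegans mimic cel-miR-67 or no mimic (mock). Each mimic was at 50 nM, and RNA was collected after 72 h. The libraries held 34452240 reads (hsa-miR-590-3p), 38745528 (hsa-miR-199a-3p), 34255689 (cel-miR-67) and 31638930 (mock), and potassium channel genes took between 0.0824% and 0.0871% of them. With 1 library per condition there is no replicate error and no test was possible. The criterion for a difference was a ratio of 2 or more, or of 0.5 or less, against each of the 2 controls. Intervals of ratios are exact binomial 95% intervals and cover counting error only, because there is 1 library per condition. As several reads can come from 1 molecule, they may understate even that error.

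Potassium channels set the resting potential of heart muscle cells and end each action potential. Several channels divide this work: transient outward channels act in early repolarization, delayed rectifiers end the plateau, and inward rectifiers hold the resting potential. A further inward rectifier opens when acetylcholine acts on the muscarinic receptor, and another links the membrane to the energy state of the cell. The mature heart expresses a different set of channels from the newborn heart, so channel genes are used to describe the state of cultured cardiomyocytes.

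The labelled cell type was checked on its markers. All 8 cardiomyocyte markers were abundant, with summed levels of 32237 CPM under hsa-miR-590-3p, 30336 under hsa-miR-199a-3p, 42588 under cel-miR-67 and 46743 in mock. Each of the 8 was lower under either microRNA than in either control, and 3 of them (Ryr2, Ttn and Pln) were at least 2-fold lower than both under hsa-miR-199a-3p. The part of this shift in the channel values was not tested. Fewer cells of a type and less RNA per cell cannot be told apart in such samples. Other cells were present: 7 fibroblast markers summed to between 9935 and 11691 CPM, 8 of smooth muscle and pericytes to between 4494 and 6436, 6 endothelial markers to between 180.6 and 241.9, and 4 epicardial and mesothelial markers to between 116.3 and 186.5. Col1a1, Col1a2 and Col3a1 gave most of the fibroblast sum and Acta2 most of the smooth muscle sum, so single members can differ from these sums. Under hsa-miR-199a-3p 3 fibroblast markers lay above both controls and 4 below, where 40.2% and 41.9% of all genes did. Among the lower ones Postn had 146.4 CPM, against 607.2 with cel-miR-67 and 445.7 in mock. Macrophage markers (7 genes) summed to 6.03, 7.70 and 7.86 CPM in the 3 mimic libraries and to 19.0 CPM in mock. The 8 neuronal and glial markers summed to between 2.67 and 3.38 CPM, and Sox10, a defining gene of glia, had 0 reads in every library.

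The mature sequence of mouse miR-199a-3p is shown because hsa-miR-199a-3p is the mimic under which channel genes met the criterion. It comes from RefSeq (GRCm38.p6), where the genes Mir199a-2 (chr1:162217883-162217904, plus strand) and Mir199a-1 (chr9:21496498-21496519, minus strand) give the same 22 bases. Capitals mark the seed, bases 2 to 8 from the 5′ end.
mmu-miR-199a-3p: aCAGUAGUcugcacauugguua

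Promoter windows reach from 250 bases before to 50 bases after a start in RefSeq (GRCm38.p6) and were found for 69 of the 94 genes. Windows are shown for Kcnj3 and Kcnj5, which encode the subunits of the acetylcholine-gated channel, and for the first of 3 starts of Kcnab2, one of the genes that were higher under hsa-miR-199a-3p. Capitals mark matches on either strand to the GC box GGGCGG and to CCAAT, which do not overlap here. The TATA box motif TATAAA (in 13.6% of all promoter windows), the GATA motif AGATAA (11.2%), a MEF2-type motif (3.69%), and the E2F-type motifs TTTGGCGC (0.514%) and TTTCCCGC (1.07%) were also searched on both strands and had no match in these windows.
Kcnj3, chr2:55435720-55436019, plus strand: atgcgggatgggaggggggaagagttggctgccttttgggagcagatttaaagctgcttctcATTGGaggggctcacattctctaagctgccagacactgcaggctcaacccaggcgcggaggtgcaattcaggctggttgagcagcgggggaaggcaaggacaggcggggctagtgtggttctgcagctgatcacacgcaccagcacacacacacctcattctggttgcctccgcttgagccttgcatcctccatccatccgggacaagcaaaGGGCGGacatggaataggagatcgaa
Kcnj5, chr9:32344295-32344594, minus strand: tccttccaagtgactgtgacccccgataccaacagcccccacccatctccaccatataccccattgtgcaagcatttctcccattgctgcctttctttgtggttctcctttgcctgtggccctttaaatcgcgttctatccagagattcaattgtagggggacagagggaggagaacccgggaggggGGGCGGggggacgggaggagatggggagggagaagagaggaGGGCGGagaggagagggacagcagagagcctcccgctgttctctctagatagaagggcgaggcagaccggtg
Kcnab2, chr4:152477500-152477799, minus strand: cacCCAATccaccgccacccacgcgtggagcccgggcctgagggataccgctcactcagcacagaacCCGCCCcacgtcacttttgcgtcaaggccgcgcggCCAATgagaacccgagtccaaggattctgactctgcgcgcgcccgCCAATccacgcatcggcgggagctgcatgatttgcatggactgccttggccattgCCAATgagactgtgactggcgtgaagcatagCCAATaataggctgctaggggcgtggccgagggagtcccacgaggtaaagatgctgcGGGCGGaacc

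The Kcnj3 window holds 1 GC box and 1 CCAAT match, and that of Kcnj5 holds 2 GC boxes. That of the first start of Kcnab2 holds 2 GC boxes and 5 CCAAT matches, but those of its starts 2 and 3 hold none of the 7 motifs. Which start is used in these cells was not tested. Among all 32851 promoter windows of this length, 35.7% hold a GC box and 37.4% hold CCAAT. The windows of Kcnf1 and Kcnk1, 1 each, which were also higher under hsa-miR-199a-3p, hold none of the 7 motifs. Matches describe letters in these windows only.

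Levels between genes were compared per kilobase, as the authors' RPKM summed over the records of a gene. The most abundant potassium channel gene was Kcng2, with 57.8 RPKM under hsa-miR-590-3p, 55.2 under hsa-miR-199a-3p, 65.1 under cel-miR-67 and 58.2 in mock. It encodes a silent Kv subunit, which forms no channel alone and modifies other Kv subunits. Next came Kcnh2, the pore of the rapid delayed rectifier, with 46.0, 36.1, 39.2 and 39.5 RPKM in the same order of libraries. Neither gene met the criterion in any comparison, and all 4 libraries lay within 1.29-fold of each other in CPM for each of them.

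**Figure D1:**
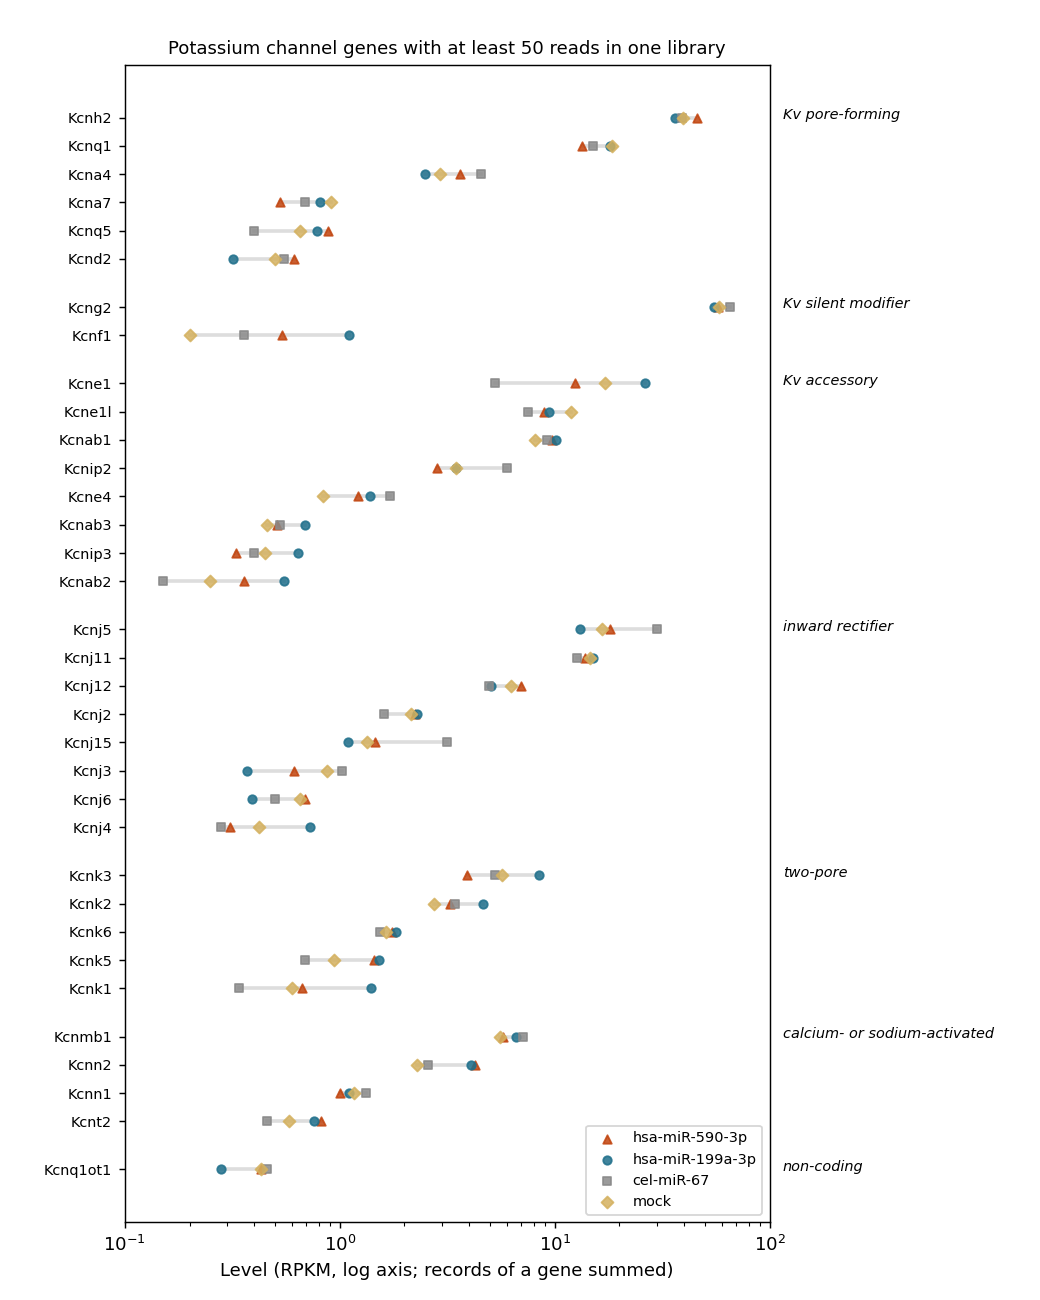
Level of 34 of the 35 potassium channel genes with at least 50 reads in one library, in RPKM on a log axis, grouped by kind of subunit. Each point is 1 library and the grey line spans the 4 libraries; Kcng2 and Kcnh2 are the most abundant, and Kcne1 has its lowest value, 5.26 RPKM, under cel-miR-67.

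In each other group of subunits 1 gene led. Among inward rectifiers it was Kcnj5, a subunit of the acetylcholine-gated channel, with a mean of 19.4 RPKM over the libraries, followed by Kcnj11, the pore of the ATP-sensitive channel, with 14.0. Among accessory subunits Kcne1, the partner of Kcnq1 in the slow delayed rectifier, had a mean of 15.3 RPKM. Kcnk3, an acid-sensitive two-pore channel, led its group at 5.82 and Kcnmb1, the smooth muscle subunit of the large calcium-activated channel, at 6.28. Kcnmb1 had 23.5, 26.6, 30.7 and 24.3 CPM, beside summed smooth muscle and pericyte markers of 5143, 6436, 5401 and 4494 CPM, whereas its pore-forming partner Kcnma1 had 2, 14, 4 and 2 reads, in the order hsa-miR-590-3p, hsa-miR-199a-3p, cel-miR-67 and mock.

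The other 59 genes stayed under 50 reads in every library, and 9 of them had 0 reads in all 4, which allows up to 0.0987 CPM in the shallowest library, taking 3 reads as the limit. Just inside the limit for naming were Kcnj6, an inward rectifier known from neurons, with at most 57 reads, and Kcnj3 with at most 59. Just outside it was Kcnd3, a transient outward pore, with at most 39 reads. Kcnd3 had 34, 39, 27 and 25 reads, and Kcna5, the pore of the ultrarapid delayed rectifier, had 8, 7, 3 and 3, in the order hsa-miR-590-3p, hsa-miR-199a-3p, cel-miR-67 and mock. Kcnj8, the ATP-sensitive pore known from vascular muscle, had 23, 37, 37 and 17. These counts are too low to compare.

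The first comparison asked which channel genes differ in cells given hsa-miR-590-3p. None of the 34 compared genes was at least 2-fold higher than both controls and none was 2-fold lower, where 0.349% and 0.237% of all 13486 genes were. Above both controls by any amount were 11 of the 34, and below both were 10, against 35.6% and 36.5% of all genes. The median log2 ratio of the 34 genes was 0.02 against cel-miR-67 and 0.01 against mock, and that of all genes was -0.00 and -0.01.

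Several channel genes were 2-fold away from one control only. Against mock alone 1 gene was higher and 0 lower (1.13% and 0.69% of all genes), and against cel-miR-67 alone 3 were higher and 2 lower (1.65% and 0.675%). Kcnf1, a silent Kv subunit, had 2.55 CPM under hsa-miR-590-3p, against 1.79 in cel-miR-67 cells and 0.99 in mock cells, a ratio to mock of 2.58 (interval 1.69 to 4.04). Kcnab2, a cytoplasmic beta subunit of Kv channels, had 1.24 CPM, against 0.54 in cel-miR-67 cells and 0.92 in mock cells, a ratio to cel-miR-67 of 2.31 (interval 1.31 to 4.25). Kcne1, Kcnq5, Kcnip2 and Kcnj15 were also 2-fold from cel-miR-67 alone, and in all 4 the log2 ratio against mock was between -0.55 and 0.32. Kcnip2 is the calcium-binding partner of transient outward pores, and 5.71% of its reads were placed uniquely, over its 3 records.

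Other genes lay on one side of both controls without meeting the criterion. Kcnk5, an alkaline-activated two-pore channel, had 168 reads or 4.75 CPM under hsa-miR-590-3p, against 2.39 CPM in cel-miR-67 cells and 3.29 CPM in mock cells, with log2 ratios of 0.99 and 0.53. Kcnn2, a small calcium-activated channel, had 8.52 CPM against 5.41 with cel-miR-67 and 4.90 in mock cells, with log2 ratios of 0.65 and 0.79. On the lower side Kcnj3, a subunit of the acetylcholine-gated channel, had log2 ratios of -0.82 and -0.61. Kcnk3 had 14.5 CPM against 20.5 in cel-miR-67 cells and 22.5 in mock cells, with log2 ratios of -0.50 and -0.63. Kcnq1, the slow delayed rectifier pore, had 13.5 RPKM against 15.1 with cel-miR-67 and 18.6 in mock cells, with log2 ratios in CPM of -0.23 and -0.56.

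**Figure D2:**
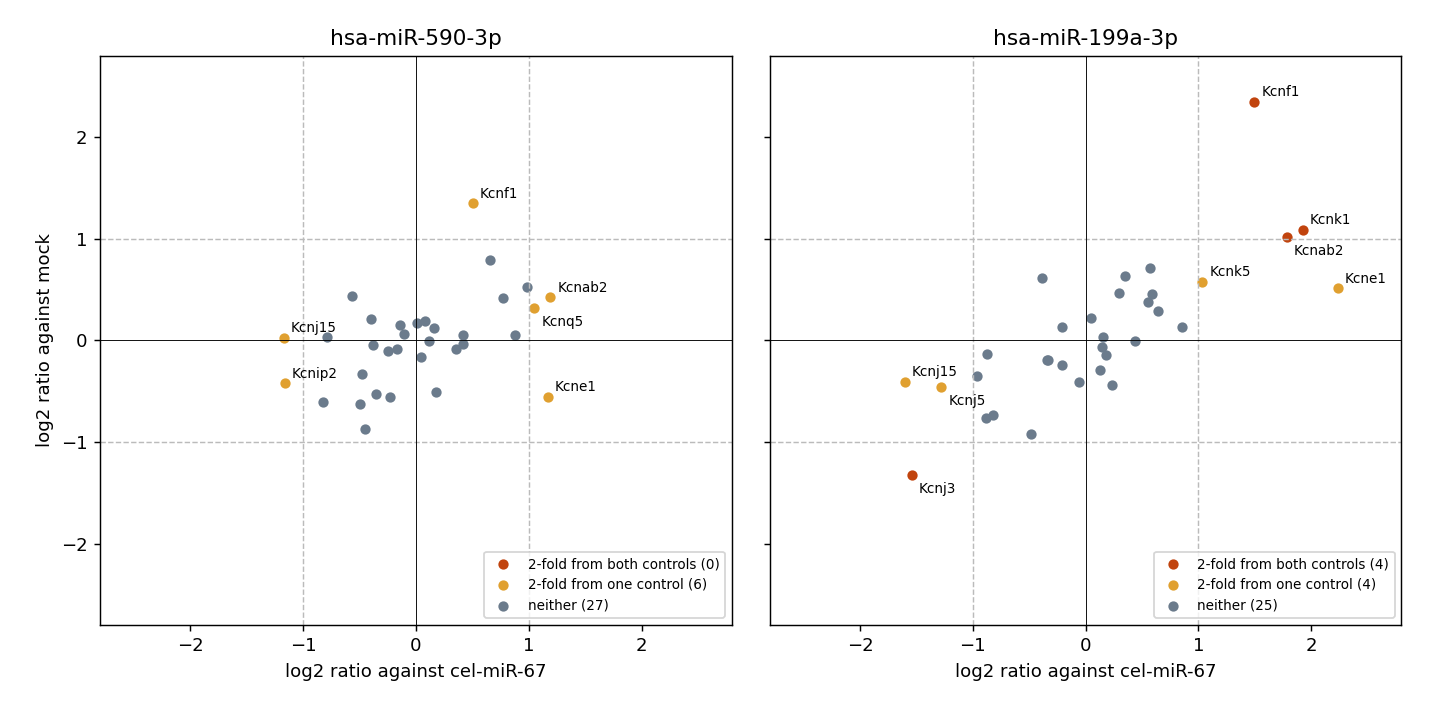
Log2 ratios of 33 of the 34 compared potassium channel genes against cel-miR-67 (x axis) and against mock (y axis), under hsa-miR-590-3p (left) and hsa-miR-199a-3p (right). Dashed lines mark 2-fold, and both axes of a panel share the microRNA library; 0 of the genes drawn are 2-fold from both controls on the left and 4 on the right.

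The same question was asked for hsa-miR-199a-3p. Under this mimic 3 channel genes were at least 2-fold higher than both controls, namely Kcnf1, Kcnk1 and Kcnab2, and 2 were at least 2-fold lower, among them Kcnj3. These are 8.82% and 5.88% of the 34 compared, where 2.4% and 2.34% of all genes met the same rule. The 4 named genes stayed under 5.1 CPM in every library and rest on few reads. Against mock alone the counts were the same 3 and 2 genes (3.95% and 3.74% of all genes), and against cel-miR-67 alone 5 and 4 (3.97% and 3.66%). Above both controls by any amount were 14 genes and below both were 13, against 40.2% and 41.9% of all genes. The median log2 ratio of the 34 was 0.14 against cel-miR-67 and -0.03 against mock, beside -0.00 and -0.01 for all genes.

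Kcnf1 rose to 5.09 CPM under hsa-miR-199a-3p, against 1.79 in cel-miR-67 cells and 0.99 in mock cells, with 205 reads against 60 with cel-miR-67 and 30 in mock cells. Its ratio was 2.84 against cel-miR-67 (interval 2.12 to 3.85) and 5.16 against mock (3.50 to 7.84). It was also higher under hsa-miR-199a-3p than under hsa-miR-590-3p, which had 2.55 CPM. The other compared silent subunit, Kcng2, had log2 ratios of -0.33 and -0.19 under hsa-miR-199a-3p.

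Kcnk1, a weakly conducting two-pore channel, rose to 3.10 CPM under hsa-miR-199a-3p, against 0.81 in cel-miR-67 cells and 1.45 in mock cells, with 125 reads against 27 with cel-miR-67 and 44 in mock cells. Its ratio was 3.85 against cel-miR-67 (interval 2.52 to 6.07) and 2.14 against mock (1.51 to 3.10). Kcnab2 rose to 1.89 CPM, against 0.54 in cel-miR-67 cells and 0.92 in mock cells, with 76 reads against 18 with cel-miR-67 and 28 in mock cells. Its ratio was 3.51 (2.08 to 6.23) and 2.05 (1.31 to 3.28), so that the interval against mock reaches below 2-fold, as it does for Kcnk1.

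**Figure D3:**
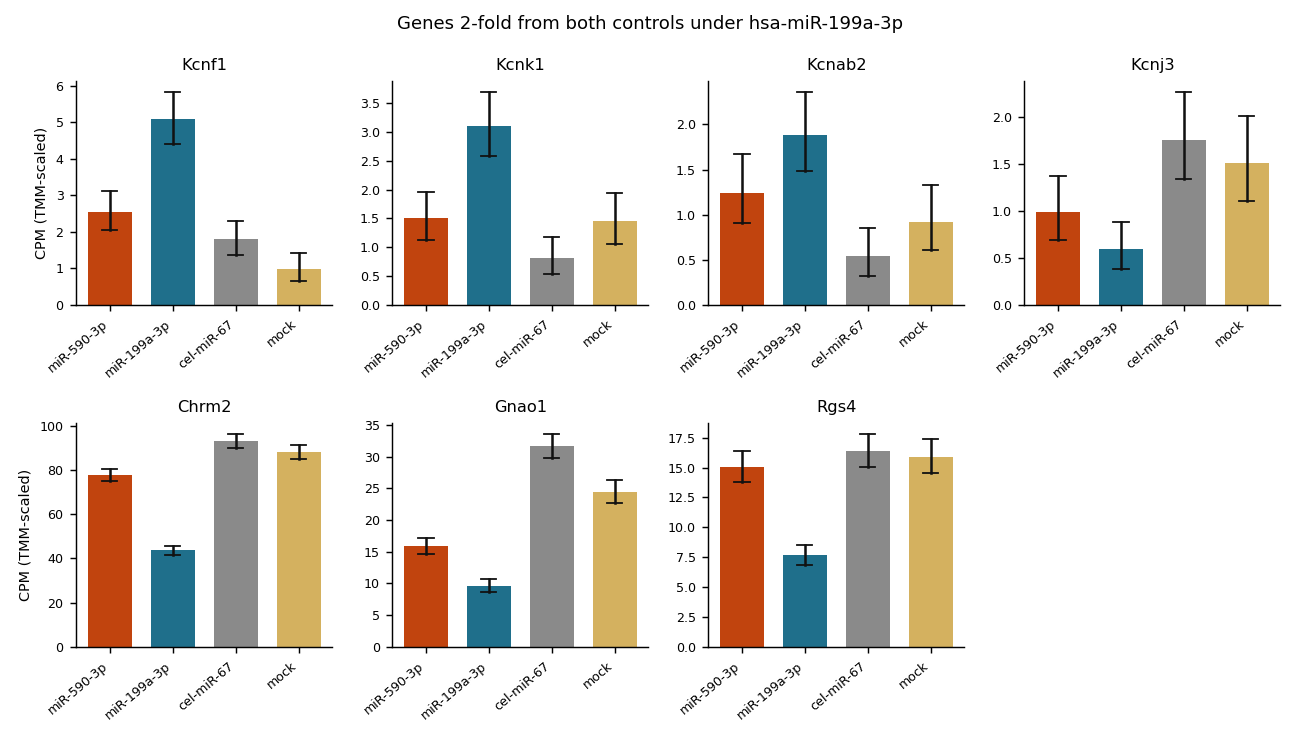
CPM in each of the 4 libraries for 4 potassium channel genes and for the partner genes Chrm2, Gnao1 and Rgs4 that were at least 2-fold from both controls under hsa-miR-199a-3p. Bars are single libraries from left to right hsa-miR-590-3p, hsa-miR-199a-3p, cel-miR-67 and mock, and lines are exact Poisson 95% intervals of the reads; Kcnf1 stands at 5.09 CPM under hsa-miR-199a-3p and between 0.99 and 2.55 CPM elsewhere.

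Kcnj3, which encodes the other subunit of the acetylcholine-gated channel beside Kcnj5, fell to 0.60 CPM under hsa-miR-199a-3p, against 1.76 in cel-miR-67 cells and 1.51 in mock cells. This rests on 24 reads against 59 with cel-miR-67 and 46 in mock cells, with ratios of 0.34 (interval 0.20 to 0.55) and 0.39 (0.23 to 0.66), and both intervals reach past 0.5. Under hsa-miR-590-3p it had 35 reads, with ratios of 0.56 (0.36 to 0.87) and 0.65 (0.41 to 1.04). Kcnj5 had 79.4 CPM under hsa-miR-590-3p and 56.5 under hsa-miR-199a-3p, against 137.2 in cel-miR-67 cells and 77.6 in mock cells. Its ratio under hsa-miR-199a-3p was 0.41 against cel-miR-67 and 0.73 against mock, so it met the 2-fold limit on one side only. Per kilobase Kcnj5 exceeded Kcnj3 by 29.7, 35.3, 28.9 and 19.1 times in the order hsa-miR-590-3p, hsa-miR-199a-3p, cel-miR-67 and mock.

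Genes that act with potassium channels were followed in a list of 22 partners, 19 of which were compared. Under hsa-miR-199a-3p 0 were 2-fold higher than both controls and 4 were 2-fold lower, where 2.4% and 2.34% of all genes were. Under hsa-miR-590-3p there were 0 in either direction, where 0.349% and 0.237% of all genes were. Chrm2, the muscarinic receptor of heart muscle, fell to 43.8 CPM under hsa-miR-199a-3p, against 93.3 in cel-miR-67 cells and 88.2 in mock cells. Gnao1, a G protein alpha subunit, fell to 9.61 CPM, against 31.7 with cel-miR-67 and 24.5 in mock cells, with 67.4% of its reads placed uniquely. Rgs4, a regulator that shortens G protein signals, fell to 7.65 CPM, against 16.4 with cel-miR-67 and 15.9 in mock cells.

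The fourth partner was Akap9, the anchoring protein that holds regulatory enzymes at the slow delayed rectifier, which fell to 52.5 CPM, against 117.1 in cel-miR-67 cells and 121.5 in mock cells. Other G protein subunits and regulators of the list did not meet the criterion under hsa-miR-199a-3p. Their log2 ratios against cel-miR-67 and mock were 0.21 and 0.45 for Gnai2, -0.27 and -0.07 for Gnai3, 0.18 and 0.36 for Gnb2, and -0.45 and -0.04 for Rgs6. Gnb1 had 0.20 and 0.17, with 1.31% of its reads placed uniquely. Adora1, another receptor gene of the list, went the other way from Chrm2, with 0.66 and 0.58, short of the criterion. Of its reads 6.32% were placed uniquely. The list median was 0.18 against cel-miR-67 and -0.05 against mock. A second list held 26 other channels, pumps and exchangers of the heart, 21 of them compared. Of these, 0 were 2-fold higher and 2 were 2-fold lower under hsa-miR-199a-3p, beside the same 2.4% and 2.34% of all genes. Under hsa-miR-590-3p there were 0 in either direction.

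The 2 that fell were Gja1, the main gap junction protein, and Slc8a1, the sodium-calcium exchanger. Gja1 fell to 525.1 CPM under hsa-miR-199a-3p, against 1186 in cel-miR-67 cells and 1328 in mock cells. Slc8a1 fell to 562.0 CPM, against 1127 with cel-miR-67 and 1387 in mock cells, and 1.43% of its reads were placed uniquely. The list median was -0.19 against cel-miR-67 and -0.08 against mock. The cardiomyocyte markers Ryr2, Ttn and Pln had log2 ratios between -1.55 and -1.13 under hsa-miR-199a-3p. The other cardiomyocyte markers, Myh6, Myh7, Tnnt2, Tnni3 and Actn2, had values between -0.59 and -0.10. The part of the marker shift in the lower values of Gja1 and Slc8a1 was not tested.

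Other genes were followed by the cardiac current they carry. For the transient outward current, Kcnd2 had 1.39 CPM under hsa-miR-199a-3p, against 2.57 with cel-miR-67 and 2.37 in mock cells, with log2 ratios of -0.88 and -0.76, short of the criterion. Its partner Kcnip2 had 2.46 CPM under hsa-miR-199a-3p, against 4.51 in cel-miR-67 cells and 2.70 in mock cells, with log2 ratios of -0.87 and -0.13. Kcna4, the slow component, had 17.1 CPM under hsa-miR-590-3p and 11.5 under hsa-miR-199a-3p, against 22.5 in cel-miR-67 cells and 14.7 in mock cells. For the resting inward rectifier, Kcnj2 had 11.9 and 12.1 CPM in the microRNA libraries, against 8.94 with cel-miR-67 and 12.2 in mock cells, and Kcnj12 had 590 and 485 reads against 419 with cel-miR-67 and 487 in mock cells, with log2 ratios of 0.41 and 0.06 under hsa-miR-590-3p. Under hsa-miR-199a-3p they were -0.06 and -0.41. Kcnj4, the third gene of this current, had 61 reads under hsa-miR-199a-3p and 23 under hsa-miR-590-3p, against 21 in cel-miR-67 cells and 29 in mock cells, and its mean was below 1 CPM.

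For the ATP-sensitive current, Kcnj11 had 41.6 CPM under hsa-miR-590-3p and 44.7 under hsa-miR-199a-3p, against 40.4 in cel-miR-67 cells and 46.6 in mock cells, so its libraries lay close together. Of the reads of Kcnj11, 15.5% were placed uniquely over its 2 records. Its regulatory partner Abcc9, the sulphonylurea receptor of heart and smooth muscle, had 212.6, 209.7, 197.2 and 216.8 CPM in that order, with 0.607% of its reads placed uniquely. The other receptor gene, Abcc8, had 46.9 CPM under hsa-miR-199a-3p, against 20.6 with cel-miR-67 and 25.7 in mock cells, with log2 ratios of 1.19 and 0.87, short of the criterion. For the rapid delayed rectifier, Kcnh2 had log2 ratios of 0.16 and 0.12 under hsa-miR-590-3p. Under hsa-miR-199a-3p they were -0.21 and -0.24. The non-coding Kcnq1ot1 had 34.9 CPM under hsa-miR-590-3p and 22.2 under hsa-miR-199a-3p, against 39.1 in cel-miR-67 cells and 36.9 in mock cells. No source used here states whether counting used strand, so reads of Kcnq1ot1 and Kcnq1 may not be separable where they overlap.

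Of the two-pore channels, 5 of 5 compared genes had values above both controls under hsa-miR-199a-3p, where 40.2% of all genes did, and only Kcnk1 met the criterion. Kcnk3 had 30.8 CPM under hsa-miR-199a-3p, against 20.5 in cel-miR-67 cells and 22.5 in mock cells, with log2 ratios of 0.59 and 0.46. Kcnk5 had log2 ratios of 1.04 and 0.58. Kcnk2, a stretch-activated channel, had 0.35 and 0.64, with 6.06% of reads placed uniquely over 3 records, and Kcnk6 had 0.15 and 0.03, with intervals of the ratios that span 1 (0.93 to 1.33 and 0.85 to 1.23). When libraries were instead scaled by their totals, the median log2 ratio of all genes under hsa-miR-199a-3p was 0.09 against cel-miR-67 and 0.10 against mock.

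The remaining named genes had no 2-fold difference from both controls. Among accessory subunits, Kcnab1, a beta subunit, had 28.7, 29.6, 28.6 and 25.4 CPM in the order hsa-miR-590-3p, hsa-miR-199a-3p, cel-miR-67 and mock, and Kcnab3, another beta subunit, had 1.27, 1.69, 1.38 and 1.22. Kcne1l, a relative of Kcne1, had 12.6, 13.2, 11.2 and 17.9 CPM, so that mock was the highest. Of the pore-forming genes, Kcna7 had 1.81, 2.71, 2.48 and 3.32 CPM. The small calcium-activated channel Kcnn1 had 3.93, 4.32, 5.47 and 4.94 CPM, and Kcnt2, a sodium-activated channel, had 3.17, 2.91, 1.85 and 2.37. In both Kcnn2 and Kcnt2 the microRNA libraries lay above the controls, and in Kcnn1 they lay below. Against mock the Kcnn1 ratios were within counting error, at 0.80 (interval 0.63 to 1.01) under hsa-miR-590-3p and 0.88 (0.70 to 1.10) under hsa-miR-199a-3p. Against cel-miR-67 they were 0.72 (0.57 to 0.90) and 0.79 (0.64 to 0.98).

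Whether the control mimic itself differs from mock was examined in the same way. Under cel-miR-67, 2 of the 34 channel genes were at least 2-fold higher than in mock, Kcnj15 and Kcne4, and 1 was 2-fold lower, Kcne1, where 0.645% and 1.33% of all genes were. Kcne1 fell to 17.0 CPM under cel-miR-67, against 56.1 in mock, a ratio of 0.30 with an interval of 0.27 to 0.33 on 568 reads against 1705. Kcnj15, an inward rectifier known from kidney, rose to 16.3 CPM, against 7.08 in mock, a ratio of 2.30 (1.96 to 2.70), but 0.650% of its reads were placed uniquely. Kcne4, an accessory subunit that restrains Kv channels, rose to 4.37 CPM, against 2.17 in mock, a ratio of 2.01 (1.49 to 2.73). With unique reads Kcne4 alone was 2-fold higher among the 32 genes compared, but Kcnj15 had too few unique reads to be compared. With a prior count of 5 or the authors' RPKM, Kcnj15 alone was 2-fold higher. The median log2 ratio of the 34 genes was -0.08 and that of all genes 0.00.

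Kcne1 shows how far the choice of control changes a value. It had 38.2 CPM under hsa-miR-590-3p and 80.1 under hsa-miR-199a-3p, against 17.0 in cel-miR-67 cells and 56.1 in mock cells. Both microRNA libraries lay above cel-miR-67, while mock lay between them. The ratio of hsa-miR-590-3p was 2.25 against cel-miR-67 and 0.68 against mock, and that of hsa-miR-199a-3p was 4.72 and 1.43. Its partner Kcnq1 had 1414, 2147, 1573 and 1791 reads in the order hsa-miR-590-3p, hsa-miR-199a-3p, cel-miR-67 and mock. Per kilobase, Kcne1 stood at 0.923, 1.45, 0.350 and 0.921 times Kcnq1 in the same order, so the cel-miR-67 library was the lowest.

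**Figure D4:**
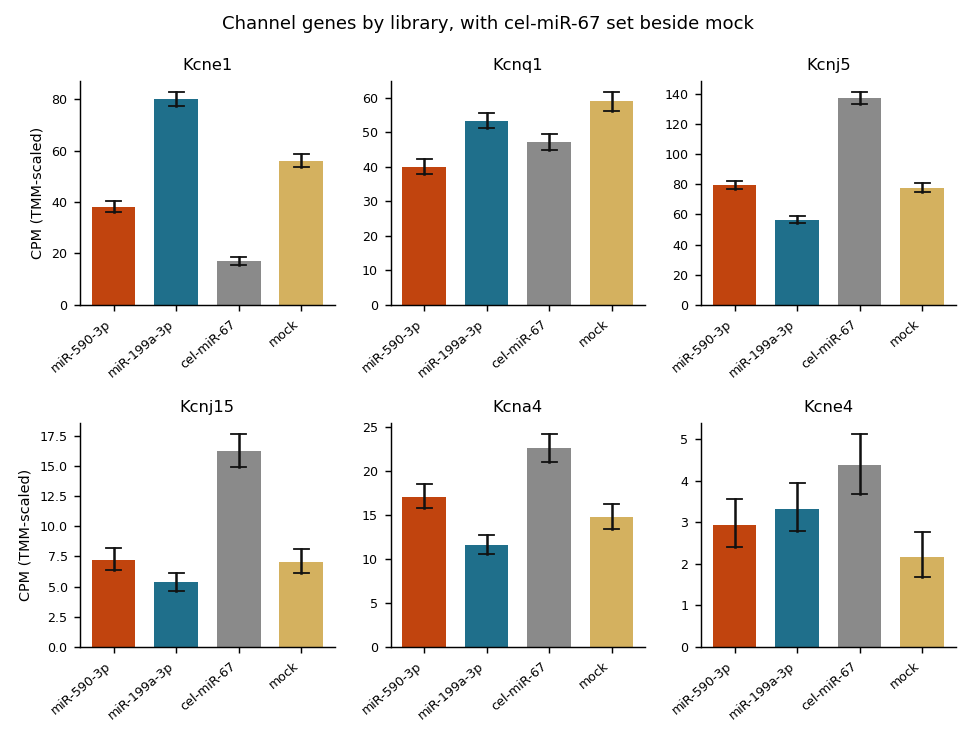
CPM in each of the 4 libraries for Kcne1, Kcnj15 and Kcne4, which were 2-fold apart between cel-miR-67 and mock, and for Kcnj5, Kcna4 and Kcnq1, which were not. Bars are single libraries from left to right hsa-miR-590-3p, hsa-miR-199a-3p, cel-miR-67 and mock, and lines are exact Poisson 95% intervals of the reads; Kcne1 has 17.0 CPM under cel-miR-67 and 56.1 CPM in mock.

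With a limit of 1.5-fold chosen after the values were seen, cel-miR-67 was higher than each of the other 3 libraries in 3 channel genes, Kcnj5, Kcnj15 and Kcnip2. It was lower than each in 4, namely Kcne1, Kcnk1, Kcnab2 and Kcnq5. These are 8.82% and 11.8% of the 34 genes, where 0.519% and 1.51% of all genes were. For Kcnj5 the ratio of cel-miR-67 to mock was 1.77 with an interval of 1.68 to 1.86. Other members rest on few reads. That ratio was 0.56 (0.33 to 0.92) for Kcnk1, on 27 and 44 reads. For Kcnab2 it was 0.58 (0.30 to 1.09), on 18 and 28 reads, an interval that includes no difference. Of the reads of Kcnj15 and Kcnip2, 0.65% and 5.71% were placed uniquely. The criterion of 2-fold from both controls does not take up genes in which cel-miR-67 alone stands apart. Kcnk1 and Kcnab2 nevertheless met it under hsa-miR-199a-3p, with the smaller ratio against mock.

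Set directly against each other, hsa-miR-590-3p was at least 2-fold higher than hsa-miR-199a-3p in 1 channel gene and at least 2-fold lower in 3, where 2.7% and 1.86% of all genes were. The lower ones were Kcnk3 at 14.5 and 30.8 CPM, with a ratio of 0.47 (0.42 to 0.52), Kcnk1 at 53 and 125 reads, and Kcne1 at 38.2 and 80.1 CPM. Kcnf1, at 2.55 and 5.09 CPM with a ratio of 0.50 (0.39 to 0.64), lay at the limit. In 5 of the 34 genes, 14.7%, the microRNA libraries lay on opposite sides of both controls, where 19.5% of all genes did. The median log2 ratio of the 34 genes was -0.05 and that of all genes 0.00.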

How the data were processed

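Each deposited file gives, per the file headers, counts of total and of uniquely placed reads for 36065 RefSeq transcript records, with the record's length and RPKM. The authors' RPKM divides a record's total reads by its length in kilobases and by the library's summed reads, and a further column repeats it. The submitters' processing notes name CASAVA 1.8 and mm8 with no role; no source used here names the mapper. Current symbols add 2 genes, both without reads.

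Total reads were summed per symbol and scaled with TMM factors (edgeR 4.0.16 under R 4.3.3). The edgeR package served no other purpose. Log2 ratios took a prior count of 0.5 and genes averaging 1 CPM or more. With 0 residual degrees of freedom no p-value was computed. A count of 0 reads allows 0.0849 (hsa-miR-590-3p), 0.0745 (hsa-miR-199a-3p), 0.0897 (cel-miR-67) and 0.0987 CPM (mock). The ratio script was tested on simulated data. Calculations used Python 3.11.15, numpy 2.4.6, pandas 2.3.3, scipy 1.17.1 and matplotlib 3.10.9, and alternatives used DESeq2 1.42.0 size factors, other filters, other counts and other controls. Members, lists and rules were chosen with earlier results of these data known. Named genes were those with at least 50 reads in one library; those that met a criterion, led their group or carry a cardiac current are given by library. Counts and medians cover all members, including a gene whose values are not reported here.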

Additional observations from a re-analysis of the deposited data

Results flagged for a closer look

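In 5 potassium channel genes one microRNA library lay above both controls and the other below both, beside 19.5% of all genes. With 1 library each, a difference between the mimics was not tested, and both mimics are set against the same control libraries. The log2 ratio of hsa-miR-590-3p to hsa-miR-199a-3p was 0.96 for Kcnd2, 0.37 for Kcnh2 and 0.47 for Kcnj12, which lay above both controls under hsa-miR-590-3p. It was -0.91 for Kcnip3, a calcium-binding protein, and -1.08 for Kcnk3, which lay below both controls under hsa-miR-590-3p. Several of these values lie within counting error of a control: under hsa-miR-590-3p the ratio of Kcnd2 was 1.06 (interval 0.78 to 1.43) against cel-miR-67 and 1.15 (0.84 to 1.58) against mock, and that of Kcnj12 was 1.04 (0.92 to 1.18) against mock. Under hsa-miR-199a-3p the ratio of Kcnj12 was 0.96 (0.84 to 1.10) against cel-miR-67. All 4 intervals of Kcnip3 against the controls also span 1. Of the reads of Kcnip3, 12.4% were placed uniquely over its 2 records.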

How the results depend on the processing

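Kcnj3, Kcnf1 and Kcnk1 met the 2-fold criterion under hsa-miR-199a-3p with DESeq2 size factors, library totals, unique reads, the record with most reads and the authors' RPKM. Kcnab2 did not meet it with a prior count of 5, and a minimum mean of 5 CPM left 0 genes higher and 1 lower. Without a filter 85 channel genes were compared. Under hsa-miR-590-3p 8 were then higher and 4 lower, while hsa-miR-199a-3p had 9 and 13. For cel-miR-67 against mock the counts were 15 and 8, and for hsa-miR-590-3p against hsa-miR-199a-3p 13 and 10. Genes added in this way averaged under 1 CPM. Some rest on single reads, such as Kcnk15 and Kcnk18, with 1 read under cel-miR-67 and 0 in mock. The matching shares of all genes are not given here, so these counts have no background. The hsa-miR-199a-3p median against cel-miR-67 was then -0.0568. The record with most reads gave 1 and 1 under hsa-miR-590-3p (Kcnq5 and Kcnip2), 2 and 5 between the microRNAs, and Kcnj15 as a further lower gene under hsa-miR-199a-3p. Against mock, cel-miR-67 had 1 gene 2-fold higher with unique reads (Kcne4), where Kcnj15 had too few to be compared. It had 1 with a prior count of 5, the minimum of 5 CPM or RPKM (Kcnj15). At that minimum Kcne4, averaging 3.20 CPM, was not compared. The hsa-miR-199a-3p median against mock was 0.0803 with library totals, 0.0752 with RPKM, and -0.14 at 5 CPM.

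As alternatives chosen after the data were seen, mock alone as control gave 1 gene higher under hsa-miR-590-3p (Kcnf1) and left the counts for hsa-miR-199a-3p at 3 and 2. Using cel-miR-67 alone gave 3 and 2 under hsa-miR-590-3p, and 5 and 4 under hsa-miR-199a-3p. No paired analysis was possible because there is 1 library per condition. Depth limits the genes with few reads: Kcnj3 had at most 59 and Kcnab2 at most 76 in any library.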
